A study of Mus musculus with 28 samples.

Results

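The cytosolic ribosomal protein genes encode the protein part of the ribosome that translates nuclear mRNAs. They were taken as the protein-coding mouse genes whose symbol follows the Rpl, Rps or Rplp naming pattern, plus Rpsa, with a mean level of at least 1 CPM (a count scaled to the library total) in each count table. Of 76 names that matched, 75 passed, out of 27179 genes in the tables. Rpl39, the one left out, averaged 0.10 CPM in the young and 0.18 CPM in the aged table. The 75 members comprise 42 large-subunit genes (Rpl), 30 small-subunit genes (Rps and Rpsa) and 3 genes of the acidic stalk (Rplp0, Rplp1 and Rplp2), which recruits the translation factors. All 75 also passed the count filter of both fits.

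RNA was sequenced from the lateral ventricle choroid plexus, the epithelium that secretes cerebrospinal fluid, of 28 male mice, 4 per group and 1 library per mouse. Young C57/BL6 wild-type mice of 3 to 4 months were taken at ZT18 (zeitgeber time, counted from lights-on) in the dark phase (young night), at ZT6 in the light phase following 6 h of sleep disruption (young sleep-disrupted day), or at ZT6 without disruption (young day). Aged males of 12 to 14 months were J20-positive mice, which carry a human amyloid precursor protein transgene, at ZT18 (J20+ night) or ZT6 (J20+ day), or their wild-type littermates, labelled J20-, at ZT18 (aged wild-type night) or ZT6 (aged wild-type day). All aged groups were without sleep disruption. The young libraries form batch 1 and the aged libraries batch 2, so age and batch cannot be told apart and the tables were never tested against each other.

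Each ribosome holds 1 copy of nearly every one of these proteins, and their genes are therefore usually expressed together. The mRNAs begin with a run of pyrimidines, the terminal oligopyrimidine (TOP) motif, through which the mTORC1 kinase and the RNA-binding protein LARP1 control their translation and stability. The choroid plexus epithelium secretes large amounts of protein, transthyretin above all, and so depends on translation. The study asked how gene expression in the choroid plexus changes between day and night, with sleep disruption, and with the J20 transgene in aged mice.

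The promoters of the members singled out in the most comparisons are shown for the pyrimidine run near their start. In Rps4x and Rps21 the longest run of the window is under 8 bases. Sequences are from RefSeq on GRCm38.p6, the assembly that mm10 names, from 70 bases before to 30 bases from the listed start, 5′ to 3′ on the gene's strand. Of the 75 members, 55 had an entry. Capitals mark the longest run of pyrimidines in the window. Rpl13 lies at chr8:123102280-123102379 on the plus strand, Rps4x at chrX:102189362-102189461 on the minus strand, Rpl38 at chr11:114668510-114668609 on the plus strand, Rps21 at chr2:180257309-180257408 on the plus strand and Rps27 at chr3:90213619-90213718 on the minus strand.
Rpl13: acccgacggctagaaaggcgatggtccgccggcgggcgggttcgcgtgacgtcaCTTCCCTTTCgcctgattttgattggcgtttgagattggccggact
Rps4x: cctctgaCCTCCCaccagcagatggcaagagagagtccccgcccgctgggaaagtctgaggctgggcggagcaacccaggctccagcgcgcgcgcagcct
Rpl38: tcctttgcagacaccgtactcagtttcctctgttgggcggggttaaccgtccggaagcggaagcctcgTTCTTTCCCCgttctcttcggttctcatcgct
Rps21: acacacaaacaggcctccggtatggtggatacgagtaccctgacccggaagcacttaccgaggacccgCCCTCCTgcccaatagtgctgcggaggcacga
Rps27: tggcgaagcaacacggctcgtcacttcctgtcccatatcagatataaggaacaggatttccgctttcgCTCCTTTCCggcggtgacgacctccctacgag
In Rpl38, Rps21 and Rps27 the run began 2 bases before the listed start, and in Rpl13 it began 16 bases before it. In Rps4x the longest run was 6 bases and lay 63 bases before the start. The run of Rps21 was 7 bases long. A run of at least 8 pyrimidines in this window occurred in 34 of 55 member promoters (61.8%) and in 35.7% of the 17437 promoters of other protein-coding genes. Over the full window of 250 bases before to 50 after the start, the ETS-factor motif CCGGAAG, on either strand, occurred in 21 of 55 members (38.2%) and in 11.8% of the others. It was present in Rpl38 and Rps21. The YY1 motif AAGATGGC occurred in 4 members (7.27%), Rps27 among them, and in 3.21% of the others. The E-box CACGTG, the sequence bound by the clock factors CLOCK and BMAL1, occurred in 5 members (9.09%) and in 7.9% of the others. The TATA motif TATAAA occurred in 4 members (7.27%) and in 13.4% of the others. These matches describe letters in a window and say nothing of binding.

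Markers of the labelled tissue were abundant. The 15 choroid epithelium markers, led by Ttr (transthyretin, the thyroxine carrier of cerebrospinal fluid), were all detected in every group and took 2.92% to 5.53% of the counts of a library. Total counts ran from 22466931 to 28982168 in young and from 14632089 to 43885898 in aged libraries. The aged groups differed in depth. Wild-type libraries held 15101043 to 20493087 counts in the day and 14632089 to 18443318 at night. J20+ day libraries held 19550770 to 43885898. J20+ night libraries 1, 3 and 4 held 26879575 to 30883097, and J20+ night 2 held 15536346. Depth and genotype were thus partly tied in the J20+ against wild-type comparisons. Beyond thinning to the shallowest library, a dependence of the members on depth was not tested. Several libraries stood apart. J20+ night 2 held 2.92% of its counts in choroid epithelium markers, below the other J20+ night libraries at 4.53% to 4.8%. Its GC trend, the slope of a library's log2 counts on the GC content of transcripts relative to the mean library, was 0.478 per 10 percentage points, against -0.248 to -0.193 in the other J20+ night libraries. Its length trend, the slope per doubling of transcript length, was -0.166, against 0.055 to 0.086. Both trends were computed over all genes except the members. Young night 4 had a GC trend of -0.437 and a length trend of 0.156, while young night libraries 1 to 3 had GC trends of 0.163 to 0.295 and length trends of -0.065 to 0.006. It also held 0.0389% of its counts in astrocyte, 0.0139% in macrophage and 0.0288% in neuron markers. Young night libraries 1 to 3 held 0.0064% to 0.0102%, 0.00493% to 0.00688% and 0.0123% to 0.0169% in that order. J20+ day 1 held 0.103% of its counts in the 12 neuron markers and 0.209% in the 8 astrocyte markers.

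Within both tables the members took a small and variable share of the counts, between 0.499% and 0.78% in young and between 1.02% and 1.92% in aged libraries. On a scale of CPM per kb of transcript, which allows levels of different genes to be compared, the median member stood at 69.6 in the young and 205 in the aged table. In the young table the highest were Rpl7 (506 CPM per kb), Rps24 (366), Rpl5 (302), Rpl3 (295) and Rps6 (257). RPL5 is the large-subunit protein that carries 5S rRNA, RPL3 sits near the peptidyl transferase centre, and RPS6 is the substrate of S6 kinase. Among the lowest in the young table were Rpl13 (2.19 CPM per kb), Rpl29 (3.46), Rpl36 (4.99) and Rplp2 (9.68). In the aged table the highest were Rpl41 (562 CPM per kb), Rpl13a (502), Rps14 (484), Rps15 (480) and Rpl3 (480). Among the lowest there were Rpl13 (14.1 CPM per kb), Rps20 (34), Rpl21 (61.7) and Rpl22 (85.6). The low value of Rps20 rests on its annotated transcript length of 3706 bases, the longest of the members, whose median is 730. Its mean was 126 CPM, so its place per kb is uncertain.

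Levels differed with base composition. Across the 75 members, log2 CPM per kb correlated with transcript GC content with r = -0.49 in the young and 0.21 in the aged table, a description across genes that share the same libraries. The 25 members richest in GC (54.6% to 60.8%) had a median of 42.4 CPM per kb in the young and 240 CPM per kb in the aged table. The 25 members poorest in GC (41.3% to 50%) had a median of 151 CPM per kb in the young and 184 CPM per kb in the aged table. Rpl36, at 60.8% GC, averaged 1.91 CPM in young and 97.5 CPM in aged libraries, and Rpl29, at 58% GC, averaged 2.15 CPM in young and 80.9 CPM in aged libraries. In all, 17 members lay under 20 CPM in the young table and 1 in the aged table, and 7 members had at least 10 times the CPM in the aged table. These values are set side by side without a test, since age, batch and any difference in library preparation cannot be told apart. Members as low as Rpl13, Rpl29 and Rpl36 in young libraries carry a larger relative counting error than the abundant ones. Their reads may also be shared with annotated pseudogenes, of which 6, 5 and 10 bear their names.

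**Figure D1:**
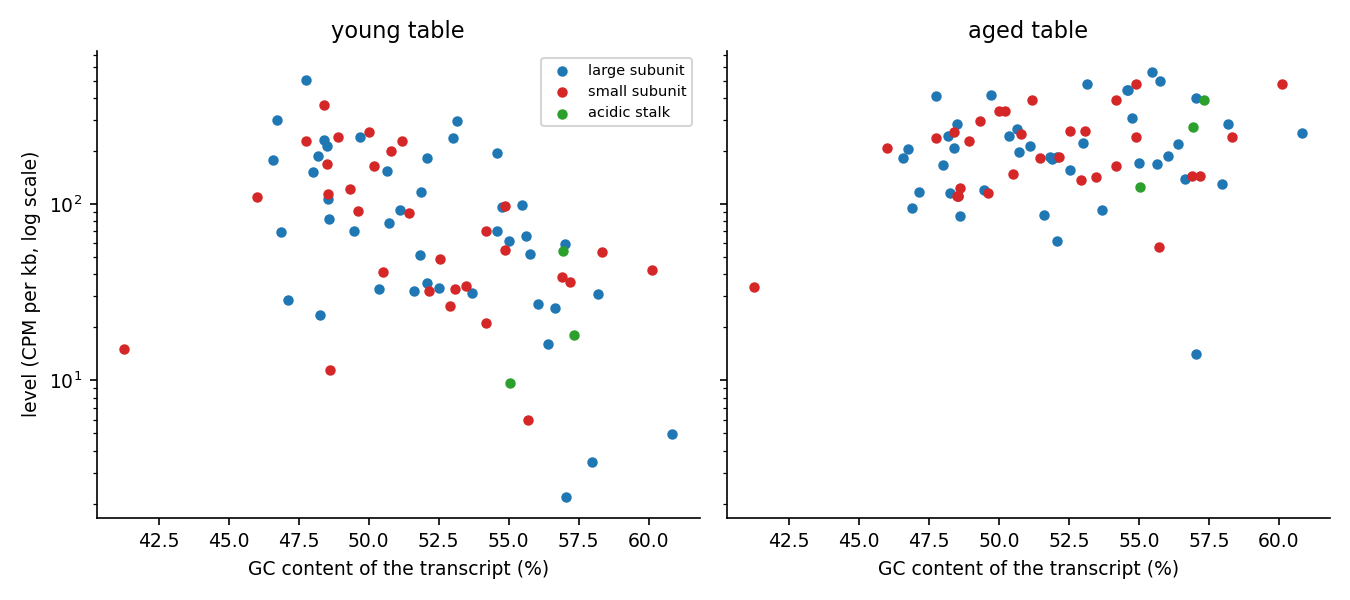
Mean level of each of the 75 members in CPM per kb (log scale) against the GC content of its transcript (%), in the young table (left, 12 libraries) and the aged table (right, 16 libraries), coloured by subunit. The members under 10 CPM per kb in the young table, Rpl13, Rpl29, Rpl36 and Rplp2 among them, lie at 55% to 60.8% GC, and no member is under 10 in the aged table.

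Most members followed the mean of the family from library to library, but not all did. The median SD of a member's log2 CPM over the libraries was 0.257 in the young table and fell to 0.148 once the mean of all members in each library was taken off. In the aged table the same values were 0.306 and 0.152. For 18 of 75 members in the young and 16 in the aged table the SD was larger after the family mean was taken off, as for Rpl5 in young libraries (0.253, against 0.06 before) and Rpl3 in aged libraries (0.577, against 0.421 before). No other set of genes was measured in this way. Rpl21, Rps2 and Rps16 followed the family mean most closely in young libraries, with remaining SDs of 0.056, 0.061 and 0.061, and Rps16, Rplp1 and Rpl32 did so in aged libraries, with 0.055, 0.063 and 0.066. Rpl29, Rpl15 and Rpl18 departed most in young libraries (0.485, 0.386 and 0.364). In aged libraries these were Rpl4, Rps4x and Rpl3 (0.59, 0.585 and 0.577). Rps4x is X-linked and lies at chrX:102184941-102189391.

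**Figure D2:**
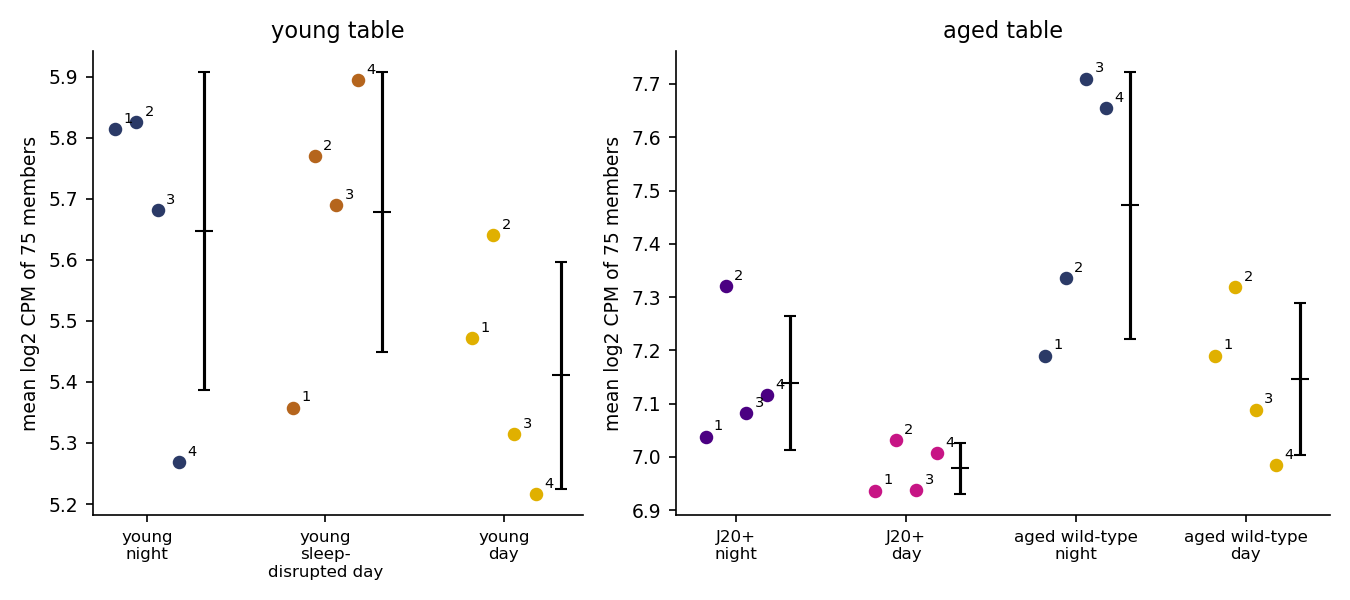
Mean log2 CPM of the 75 members in each library (points, numbered by replicate) with the group mean ± SD (bars, n = 4), in the young table (left) and the aged table (right). Groups overlap in each young comparison, and aged wild-type night holds the highest libraries of the aged table, 7.71 and 7.65.

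In the young mice the mean log2 CPM of the members was 5.81, 5.83, 5.68 and 5.27 in young night libraries 1 to 4, and 5.36, 5.77, 5.69 and 5.89 in sleep-disrupted libraries 1 to 4. It was 5.47, 5.64, 5.32 and 5.22 in young day libraries 1 to 4. Group means were 5.65 ± 0.26 at night, 5.68 ± 0.23 after sleep disruption and 5.41 ± 0.19 in the day (SD, n = 4 each). All but young night 4 lay above every day library at night, and after sleep disruption libraries 2 to 4 did, so each of these groups overlapped with day through 1 library. The 5 young libraries with the lowest member mean (young day 1, 3 and 4, young night 4 and sleep-disrupted 1) were also the 5 with the lowest GC trend and the 5 with the highest length trend. The members are short, with a median transcript of 730 bases against 2315 bases for all genes tested, and slightly GC-rich, 52.1% against 50.6%.

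The first young comparison asks what differs between the active night and the resting day. No member was called in young night against young day by edgeR's quasi-likelihood test at an adjusted p of 0.05 (0 of 75), with 0.267% of all 14983 genes called in either direction. At an unadjusted p under 0.05, 12 members were higher and 0 lower, where 4.87% and 4.52% of all genes were. DESeq2 called 0 members, and limma-voom with quality weights called 36 higher and 0 lower, where it called 11.1% and 7.8% of all genes. The median log2 fold change of the members was 0.22 against 0.02 over all genes tested, and 63 of 75 were above 0, as were 53.9% of all genes. For 0 members did the night and day libraries separate without overlap, an order that 1.97% of all genes had with night above and 2.72% with night below. The medians were 0.25 for the large subunit, 0.19 for the small subunit and 0.40 for the stalk. Without young day 4 the median of all members was 0.13, and without young night 4 it was 0.32. Of the markers tested, 10 of 11 macrophage, 11 of 11 fibroblast and mural and 7 of 8 astrocyte genes had a log2 fold change above 0. Among choroid epithelium markers 2 of 15 did. At an unadjusted p under 0.05, 3 macrophage genes and 1 astrocyte gene were higher.

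Among single members at night, Rps29, a small zinc-binding protein of the small subunit, measured 16.1, 16.3, 12.7 and 10.7 CPM in young night libraries, against 9.42, 12, 7.6 and 8.38 CPM in young day libraries. Its lowest night library lay between the highest day libraries, and the log2 fold change of 0.57 ± 0.19 (SE) had an adjusted p of 0.344, the smallest of the family. Rpl29, a large-subunit protein, measured 3.32, 3.41, 2.34 and 1.42 CPM at night, against 1.95, 1.53, 0.665 and 1.3 CPM in the day, with a log2 fold change of 0.95 ± 0.37 and an adjusted p of 0.457. Its night library 4 lay inside the day range. Rpl18 followed with 0.78 ± 0.32 (adjusted p 0.479), and Rpl35 with 0.58 ± 0.21 (adjusted p 0.436). At the low end stood Rpl5, at -0.09 ± 0.06, and Rps27, at -0.12 ± 0.12. Across the 75 members the log2 fold change correlated with the average log2 CPM of a gene with r = -0.73 and with transcript GC content with r = 0.7, and level and GC content were themselves related in these libraries. By GC content, the members had a median of 0.41 in the GC-richest 25 and 0.05 in the GC-poorest 25.

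The second young comparison asks what 6 h of sleep disruption changes at the same time of day, and it uses the same day libraries as the first. No member was called in sleep-disrupted against undisturbed day (0 of 75), and edgeR called 0% of all genes. At an unadjusted p under 0.05, 12 members were higher and 0 lower, where 1.5% and 0.901% of all genes were. DESeq2 and limma-voom called 0 members. The median log2 fold change was 0.22 against 0.004 over all genes, and 72 of 75 members were above 0, as were 50.8% of all genes. The groups of all 75 overlapped, while 0.968% of all genes had every sleep-disrupted library above and 1% every one below the day libraries. Rpl15, Rps27 and Rps4x were the 3 below 0. Without young day 4 the median was 0.14. Of the markers tested, 4 of 11 macrophage, 2 of 11 fibroblast and mural and 4 of 8 astrocyte genes had a log2 fold change above 0.

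Rps29 had the smallest p here as well. It measured 11.9, 17.4, 14.7 and 17.7 CPM in sleep-disrupted libraries, against 9.42, 12, 7.6 and 8.38 CPM in day libraries. Only sleep-disrupted library 1 reached into the day range, and the log2 fold change was 0.72 ± 0.19 (unadjusted p 0.00216, adjusted p 0.861). Rpl35 measured 20.7, 29.8, 23.2 and 34.4 CPM after disruption, against 16, 24, 14.3 and 19.3 CPM in the day, a log2 fold change of 0.55 ± 0.21 (adjusted p 0.861). Rpl29 stood at 0.87 ± 0.37. Rpl15 (-0.03 ± 0.12) and Rps4x (-0.05 ± 0.09) were the lowest. Across the 75 members the log2 fold change correlated with average log2 CPM with r = -0.7 and with GC content with r = 0.63, with a median of 0.43 in the GC-richest and 0.11 in the GC-poorest 25.

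Night and sleep disruption were then compared directly, a contrast between spontaneous and enforced wakefulness that differ in time of day. No member was called (0 of 75), where edgeR called 0.38% of all genes. Counting by unadjusted p under 0.05, 0 members were higher and 1 lower, where 5.11% and 4.59% of all genes were. DESeq2 called 0, and limma-voom called 1 lower, where it called 3.85% of all genes. The members had a median log2 fold change of -0.03 against 0.008 over all genes, and 31 of 75 were above 0, as were 51.9% of all genes. The sign of this median was not stable, since it was 0.087 without young night 4 and 0.039 in limma-voom. Of the sleep-disrupted libraries, leaving out 4 gave 0.039, leaving out 2 gave 0.006 and leaving out 1 gave -0.123. The member with the smallest p was Rpl22, a large-subunit protein that mice can lack without losing general protein synthesis. It measured 118, 125, 119 and 108 CPM at night, against 121, 140, 137 and 145 CPM after sleep disruption, a log2 fold change of -0.21 ± 0.08 (adjusted p 0.372). Rpl5 was the single member whose groups did not overlap, with 435, 412, 409 and 408 CPM at night, all below the 437, 447, 456 and 440 CPM after disruption, where 4.18% of all genes had that order and 3.65% the opposite one. Its difference was small, -0.10 ± 0.06 on the log2 scale (edgeR, adjusted p 0.687). Rpl13 (0.19 ± 0.21) and Rpl36 (0.15 ± 0.35), both under 4 CPM, were the highest, and Rpl3 (-0.19 ± 0.17) followed Rpl22 at the low end. Of the markers tested, 10 of 11 macrophage and 11 of 11 fibroblast and mural genes had a log2 fold change above 0. Among neuron and astrocyte markers 5 of 12 and 3 of 8 did. At an unadjusted p under 0.05, 7 macrophage genes and 1 fibroblast and mural gene were higher.

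**Figure D3:**
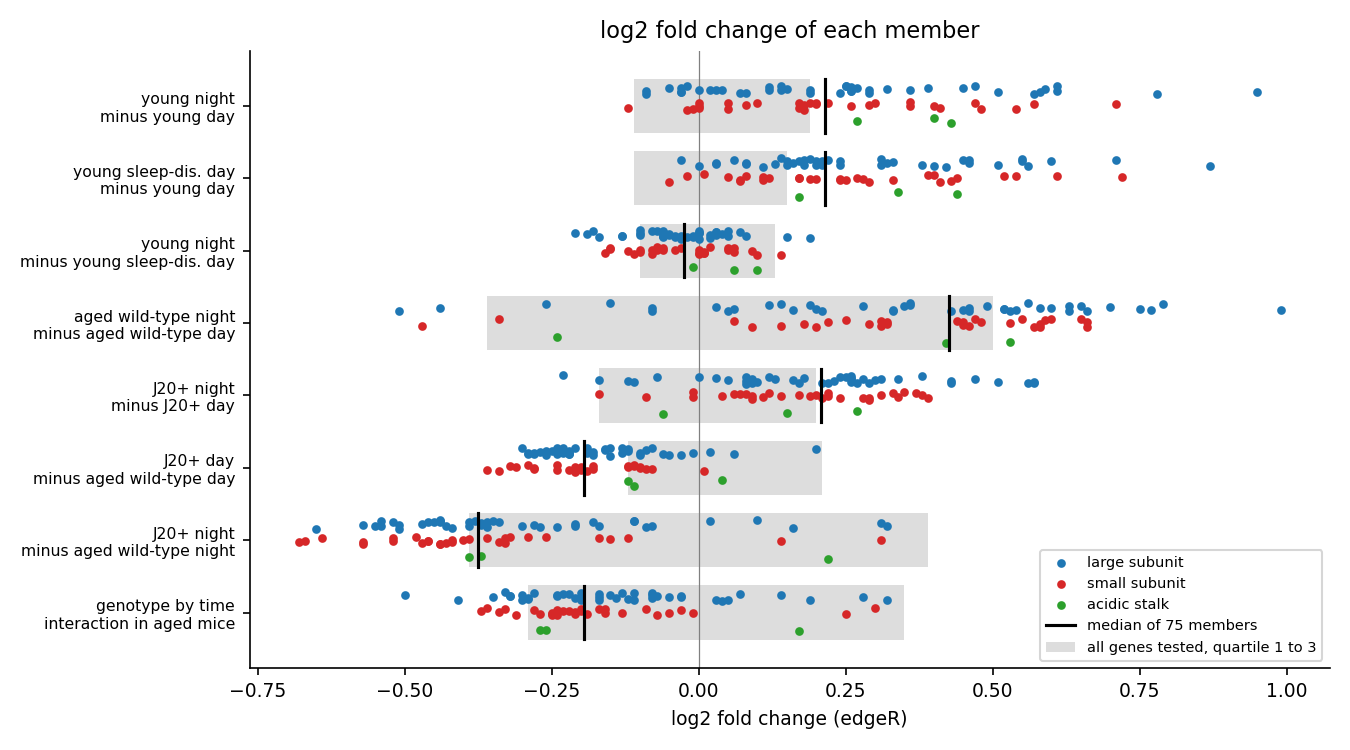
log2 fold change of each of the 75 members (points, coloured by subunit, with vertical scatter for legibility) in the 8 comparisons, with the median of the members (black line) and quartiles 1 to 3 of all genes tested (grey bar). The members' medians lie at 0.22 in both young comparisons with day, at 0.43 in aged wild-type night against day and at -0.38 in J20+ night against aged wild-type night.

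In the aged mice the mean log2 CPM of the members was 7.04, 7.32, 7.08 and 7.12 in J20+ night libraries 1 to 4 and 6.94, 7.03, 6.94 and 7.01 in J20+ day libraries. It was 7.19, 7.34, 7.71 and 7.65 in aged wild-type night and 7.19, 7.32, 7.09 and 6.99 in aged wild-type day libraries. Group means were 7.14 ± 0.13 (J20+ night), 6.98 ± 0.05 (J20+ day), 7.47 ± 0.25 (aged wild-type night) and 7.15 ± 0.14 (aged wild-type day; SD, n = 4 each). Every J20+ night library was above every J20+ day library, but by a narrow margin, with J20+ night 1 at 7.038 and J20+ day 2 at 7.032. The wild-type night and day groups overlapped, with group means farther apart than those of the J20+ groups. The 5 aged libraries with the highest member mean (wild-type night 2, 3 and 4, J20+ night 2 and wild-type day 2) were also the 5 with the lowest length trend.

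In aged wild-type night against day, edgeR called 0 of 75 members, with 0.0124% of all 16065 genes called. Without adjustment, 47 members were higher and 0 lower at p under 0.05, and 16% and 15.2% of all genes passed that limit. DESeq2 called 17 higher and 0 lower, where it called 4.29% and 4.79% of all genes. Limma-voom called 43 higher and 6 lower, where it called 27.7% and 23.9%. A fit on the 8 libraries of these groups alone called 24 higher and 2 lower, where it called 13.7% and 12.6%. The median log2 fold change was 0.43 against 0.03 over all genes, and 66 of 75 members were above 0, as were 52.1% of all genes. Without wild-type night 3 the median was 0.26, with all genes at -0.06. For 13 members every night library was above every day library, an order that 10.8% of all genes had, and for 1 member every night library was below, as for 15.2% of all genes.

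Rps21, a small-subunit protein, measured 107, 118, 152 and 181 CPM in aged wild-type night libraries, against 96.3, 108, 91 and 90.3 CPM in aged wild-type day libraries. Only night library 1 reached into the day range, and the log2 fold change was 0.53 ± 0.15 (unadjusted p 0.00286, adjusted p 0.144). Rpl38, a large-subunit protein known in mouse embryos for its role in translating Hox mRNAs, measured 62.4, 99.5, 107 and 135 CPM at night, against 45.8, 64.7, 53.1 and 40 CPM in the day. This was the highest log2 fold change of the family, 0.99 ± 0.31 (adjusted p 0.144). Rpl21 (0.79 ± 0.25) and Rpl23a (0.54 ± 0.15) had every night library above every day library, each with an adjusted p of 0.144. Reads of Rpl21 and Rpl23a are less certain, since 15 and 13 annotated pseudogenes bear their names.

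A few members ran the other way. Rps4x measured 104, 78.2, 95.3 and 70.1 CPM at night, all below the 125, 121, 105 and 130 CPM of the day, with a log2 fold change of -0.47 ± 0.25 (adjusted p 0.193). Rpl3 measured 357, 258, 387 and 311 CPM at night, against 477, 483, 386 and 529 CPM in the day, with -0.51 ± 0.25 (adjusted p 0.17). The 9 members below 0 were Rpl15, Rpl22, Rpl3, Rpl4, Rpl5, Rpl7, Rplp0, Rps4x and Rps9. Markers of other cell types moved with this comparison. All 12 neuron markers had a log2 fold change above 0, 11 of them at an unadjusted p under 0.05, and they took 0.0194% to 0.135% of counts in night libraries, against 0.0083% to 0.0258% in day libraries, with no marker at 0. The 9 oligodendrocyte markers, all above 0, took 0.076% to 0.635% at night and 0.0126% to 0.286% in the day, and the 8 astrocyte markers, all above 0, took 0.0316% to 0.164% at night and 0.0069% to 0.0449% in the day. All 15 choroid epithelium markers were below 0, 11 of them at an unadjusted p under 0.05, at 2.95% to 3.99% of counts at night and 4.72% to 5.16% in the day. With the neural score as a covariate the median of the members was 0.39. In bulk tissue, fewer cells of a type and less RNA per cell cannot be told apart.

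In J20+ night against J20+ day, edgeR called 0 of 75 members, where it called 0.0436% of all genes, 0.0311% higher. With p under 0.05 before adjustment, 2 members were higher and 0 lower, where 4.36% and 3.05% of all genes were, and DESeq2 and limma-voom called 0. The members had a median of 0.21 on the log2 scale against 0.02 over all genes, and 64 of 75 were above 0, as were 52.6% of all genes. For 9 members every night library lay above every day library, as for 2.42% of all genes, and for 0 below, as for 1.19%. Rpl27, of the large subunit, measured 109, 236, 117 and 105 CPM in J20+ night libraries, against 99.6, 102, 86 and 93.3 CPM in J20+ day libraries, with a log2 fold change of 0.57 ± 0.24 (adjusted p 0.652). The groups did not overlap, but library 2 stood far above the other J20+ night libraries. Rpl38 (0.57 ± 0.31), Rpl28 (0.51 ± 0.26) and Rpl31 (0.43 ± 0.20) were next, Rpl31 with 23 pseudogenes named after it. Rpl13 (-0.17 ± 0.32) and Rpl3 (-0.23 ± 0.25) were the lowest. Markers of other cell types also differed. Of the markers, 1 of 12 neuron, 0 of 8 astrocyte, 1 of 12 macrophage, 1 of 7 ependyma and 2 of 11 fibroblast and mural genes had a log2 fold change above 0, and 3 ependyma and 5 fibroblast and mural genes were lower at an unadjusted p under 0.05. Neuron markers took 0.00725% to 0.0471% of counts in J20+ night and 0.00827% to 0.103% in J20+ day, and astrocyte markers 0.00755% to 0.0442% in J20+ night and 0.00749% to 0.209% in J20+ day. The 0.103% and 0.209% were those of J20+ day 1, while the other J20+ day libraries held at most 0.0187% and 0.0293%. With the neural score as a covariate the median of the members was 0.21. Without J20+ night 2 the median of the members was 0.10, and Rpl27 stood at 0.21, Rpl38 at 0.09, Rpl28 at 0.12, Rpl31 at 0.17, Rpl13 at 0.00 and Rpl3 at 0.02.

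The genotype comparison in the day asks what the J20 transgene changes at ZT6. In J20+ day against aged wild-type day edgeR called 0 of 75 members and 0% of all genes. Unadjusted p-values under 0.05 were found for 0 members higher and 1 lower, where 1.48% and 0.392% of all genes had one. DESeq2 called 0, and limma-voom called 20 lower and 0 higher, where it called 4.2% and 10.5% of all genes. The median log2 fold change was -0.20 against 0.03 over all genes, and 5 of 75 members (Rpl13, Rpl22, Rpl3, Rplp0 and Rps4x) were above 0, as were 54.6% of all genes. Rps15a, of the small subunit, measured 179, 205, 174 and 200.5 CPM in J20+ day libraries, all below the 238, 268, 233 and 208 CPM of aged wild-type day libraries. Its log2 fold change was -0.32 ± 0.14 (adjusted p 0.989). Rpl30, Rpl32, Rps14 and Rps21 also had every J20+ library below every wild-type library, 5 members in all, where 1.03% of all genes had that order and 0.33% the opposite one. Rps28 (-0.36 ± 0.22) and Rps29 (-0.34 ± 0.21) were the lowest, Rpl32 stood at -0.24 ± 0.12 and Rpl23 at -0.26 ± 0.15. Rpl13 (0.20 ± 0.32) and Rpl22 (0.06 ± 0.17) were the highest. Without aged wild-type day 2 the median of the members was -0.11. Of the markers, 12 of 12 neuron, 8 of 8 astrocyte, 11 of 11 fibroblast and mural, 11 of 12 macrophage and 1 of 9 oligodendrocyte genes had a log2 fold change above 0, and 3 fibroblast and mural, 2 macrophage and 1 astrocyte genes were higher at an unadjusted p under 0.05. Neuron markers took 0.00827% to 0.103% of counts in J20+ day and 0.0083% to 0.0258% in aged wild-type day. The highest J20+ day values came from 1 library, J20+ day 1. It held 0.103% in neuron, 0.209% in astrocyte and 0.0957% in fibroblast and mural markers. The other J20+ day libraries held at most 0.0187%, 0.0293% and 0.0423% in that order. Marker counts without J20+ day 1 were not tested. With the neural score as a covariate the median of the members was -0.19.

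The same genotype comparison was made at night, with libraries shared by the night-day contrasts. In J20+ night against aged wild-type night edgeR called 0 of 75 members, where it called 0.00622% of all genes. Before adjustment, p was under 0.05 for 42 members below and 0 above wild-type, where 11.5% and 20.4% of all genes were. DESeq2 called 28 lower and 0 higher, where it called 6.29% and 12.9% of all genes, and limma-voom called 54 lower and 8 higher, where it called 36.1% and 36%. The median log2 fold change was -0.38 against -0.008 over all genes, and 8 of 75 members were above 0, as were 49.5% of all genes. In 11 members every J20+ night library was below every wild-type night library, as in 2.86% of all genes, and in 0 above, as in 4.28%.

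Rps21 measured 85.6, 106, 91.6 and 93.7 CPM in J20+ night libraries, all below the 107, 118, 152 and 181 CPM of aged wild-type night libraries. Its log2 fold change was -0.57 ± 0.15 (unadjusted p 0.00184), and its adjusted p of 0.0917 was the smallest the family reached in any comparison. Rps29 measured 74.8, 136, 76.9 and 81.1 CPM in J20+ night, against 108, 129, 152 and 200 CPM in aged wild-type night, with -0.68 ± 0.21 (adjusted p 0.0917). Its library 2 was the one that reached into the wild-type range. Rps27 stood at -0.67 ± 0.18 and Rps12 at -0.52 ± 0.16, both with an adjusted p of 0.0917. Reads of Rps27 could be shared with the near-identical Rps27rt, which stood at -0.61 ± 0.15, and 23 pseudogenes bear the name of Rps12. Rpl4 (0.32 ± 0.27) and Rps4x (0.31 ± 0.25) were the highest. Rps4x measured 132, 46.3, 121 and 133 CPM in J20+ night, against 104, 78.2, 95.3 and 70.1 CPM in aged wild-type night, so that all J20+ libraries but library 2 were above the wild-type range.

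This count depended on J20+ night 2. Without that library, edgeR called 51 members lower and 6 higher, and it also called 28.1% of all genes lower and 29.6% higher. Without aged wild-type night 3 instead, edgeR called 0 members and the median was -0.22, with all genes at 0.09. Without J20+ night 2 the median of the members was -0.50 on the log2 scale, Rps21 stood at -0.62 (adjusted p 0.00506), Rps29 at -0.92 (adjusted p 0.00184), Rps27 at -0.84 (adjusted p 0.00179), Rpl4 at 0.59 (adjusted p 0.00561) and Rps4x at 0.57 (adjusted p 0.00321). Markers of other cell types moved with this comparison too. The 12 neuron, 9 oligodendrocyte and 8 astrocyte markers all had log2 fold changes below 0, 8, 4 and 6 of them at an unadjusted p under 0.05, with neuron markers at 0.00725% to 0.0471% of counts in J20+ night and 0.0194% to 0.135% in aged wild-type night. Of 15 choroid epithelium markers 14 were above 0, 11 at an unadjusted p under 0.05, at 2.92% to 4.8% of counts in J20+ night and 2.95% to 3.99% in aged wild-type night. With the neural score as a covariate the median of the members was -0.34.

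The interaction tests whether the night-day difference itself depends on genotype. For it edgeR called 0 of 75 members and 0% of all genes. No member passed an unadjusted p of 0.05 (0 higher, 0 lower), where 2.95% and 9.45% of all genes did. DESeq2 called 0, and limma-voom called 5 higher and 4 lower, where it called 18.1% and 15.2% of all genes. The median was -0.20 on the log2 scale against 0.06 over all genes, with 11 of 75 members above 0, as were 55.4% of all genes. The lowest adjusted p was 0.474, for Rps21 at -0.34 ± 0.21. Rpl13 (-0.50 ± 0.45) and Rpl38 (-0.41 ± 0.44) were the lowest, Rps27 stood at -0.36 ± 0.25 and Rpsa, the laminin-receptor protein of the small subunit, at -0.22 ± 0.15. Rpl4 (0.32 ± 0.39) and Rps4x (0.30 ± 0.35) were the highest. The direction of the median also rested on single libraries, as it was 0.016 without aged wild-type night 3 (all genes 0.18), -0.10 without aged wild-type night 4 and -0.313 without J20+ night 2. Without J20+ night 2, 1 member was called higher (Rps4x at 0.56, adjusted p 0.0447) and 3 lower, Rpl38 among them (-0.89, adjusted p 0.0471), where 11.2% and 9.74% of all genes were called.

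Transcript GC content and length were then taken into account, because libraries at the ends of the order by member mean often had extreme trends. The 5 young libraries with the lowest member mean had the 5 lowest GC and the 5 highest length trends. The 5 aged libraries with the highest member mean had the 5 lowest length trends. For GC the aged match was looser, as 3 of the 5 libraries with the lowest member mean were among the 5 with the lowest GC trend.

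**Figure D4:**
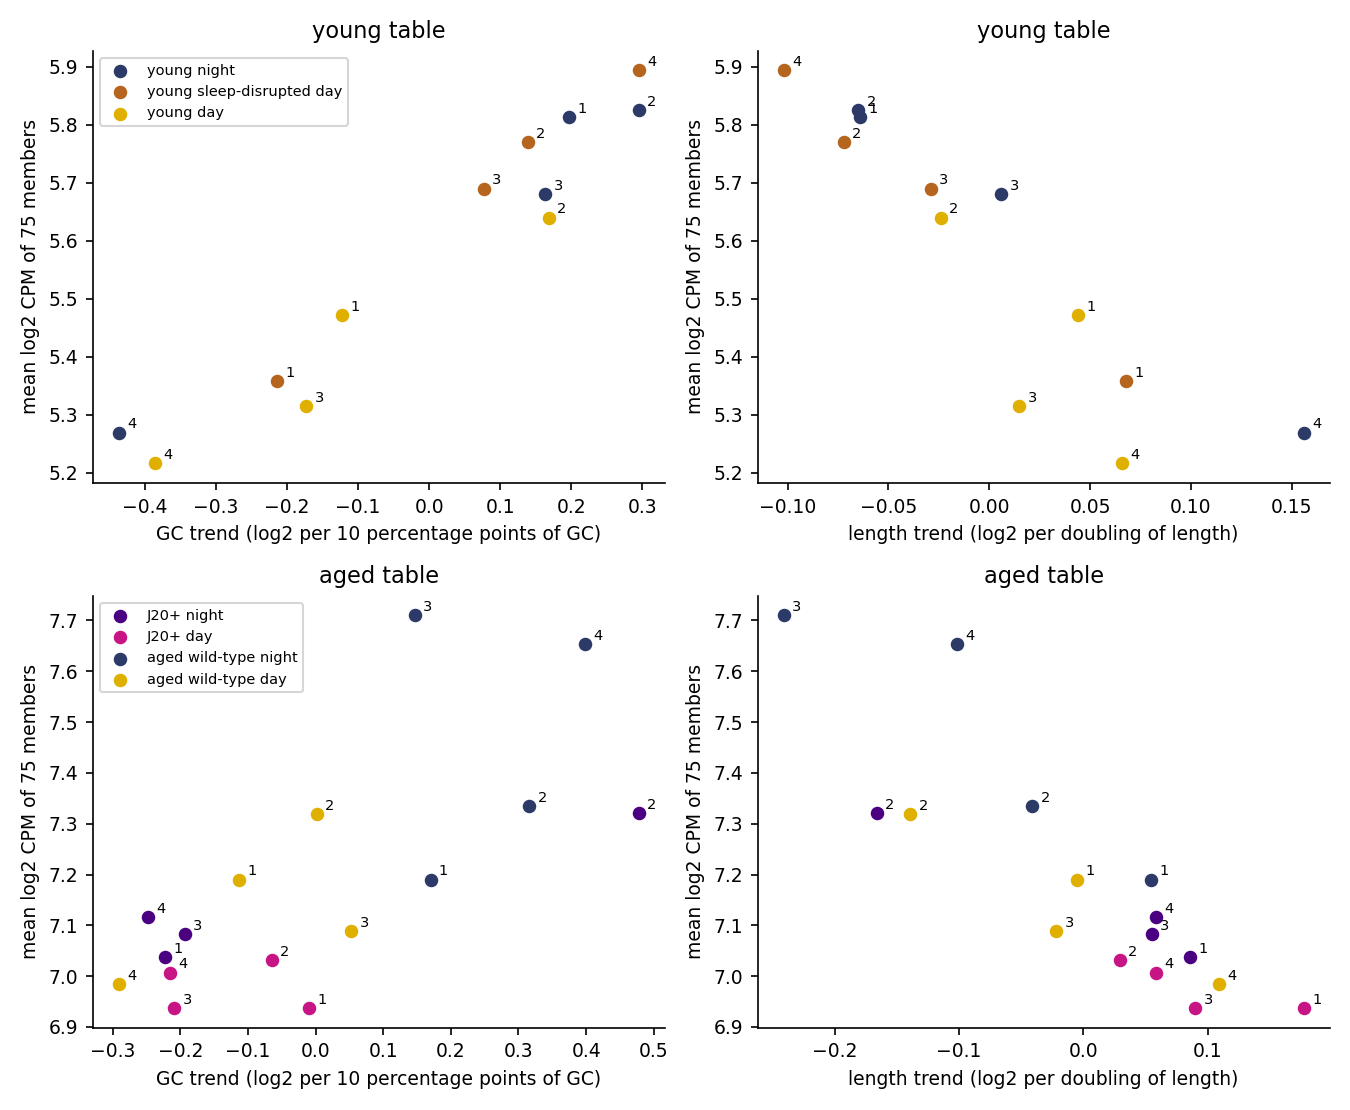
Mean log2 CPM of the 75 members in each library against the library's GC trend (left, log2 per 10 percentage points) and length trend (right, log2 per doubling of transcript length), for the young (top) and aged (bottom) tables, with points coloured by group and numbered by replicate. Young libraries with a GC trend below -0.1 all have a member mean of at most 5.47, and the 5 aged libraries with the lowest length trends have the 5 highest member means.

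A correction of each library for transcript length by a smooth curve brought the median of the members closer to 0 in 7 of 8 comparisons. In the young table it became 0.13 in night against day, 0.10 in sleep disruption against day and 0.03 in night against sleep disruption. In aged wild-type night against day it became 0.06, with all genes at -0.06, and in J20+ night against day 0.07, with all genes at 0.04. For J20+ day against aged wild-type day the members stood at -0.07 and all genes at -0.02. For J20+ night against aged wild-type night they stood at -0.05 and all genes at 0.09. In the interaction they stood at 0.005 and all genes at 0.18. A correction for GC content alone left the medians at 0.18 in young night against day, 0.20 after sleep disruption, 0.28 in aged wild-type night against day and -0.28 in J20+ night against aged wild-type night. With both corrections, fitted without the members, medians were 0.11 and 0.06 in the young comparisons of night and of sleep disruption with day. In aged wild-type night against day the members were then at -0.06, against -0.15 for all genes, and in J20+ night against aged wild-type night at 0.02, against 0.17 for all genes. Their own sign was thus the opposite of the uncorrected one, while their place relative to all genes was not. In the interaction they stood at 0.15, against 0.30 for all genes. Under these corrections edgeR called 0 members in every comparison. Single members differed in how far they moved. Rps29 stood at 0.45 after sleep disruption with both corrections, and Rps21 at -0.11 in aged wild-type night against day. Rpl3 stood there at -0.87 (adjusted p 0.0938), farther from 0 than without the corrections.

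**Figure D5:**
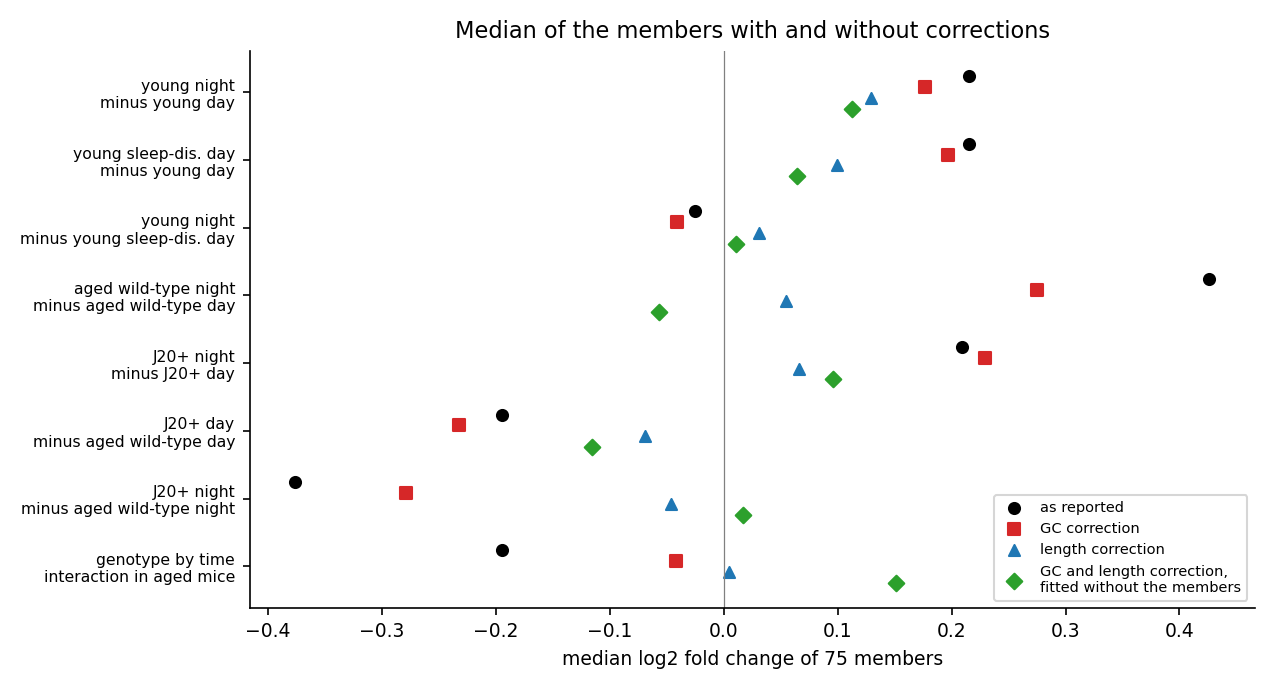
Median log2 fold change of the 75 members in the 8 comparisons as reported (circles), with GC correction (squares), length correction (triangles) and both corrections fitted without the members (diamonds). The medians of aged wild-type night against day are 0.43, 0.28, 0.06 and -0.06 in that order.

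Genes that work with the ribosomal proteins were examined as lists, none of which held a called gene. The ribosomal proteins outside the naming pattern, such as Fau, which is made as a fusion with a ubiquitin-like protein, had medians of the same sign as the members. Their median was 0.22 in young night against day (7 of 9 above 0), 0.21 after sleep disruption (9 of 9), 0.34 in aged wild-type night against day (10 of 11) and -0.32 in J20+ night against aged wild-type night (1 of 11). The 25 translation factors and other TOP mRNAs, a list that also holds Fau, had medians of -0.02 in young night against day, 0.05 after sleep disruption, -0.08 in aged wild-type night against day and -0.02 in J20+ night against aged wild-type night. Eif4b, a helper of the cap-binding helicase, stood at -0.19 ± 0.06 in young night against day (adjusted p 0.273) and at -0.24 ± 0.06 against sleep disruption (adjusted p 0.135), with every night library lowest in both. Whether these lists differ from the members was not tested.

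Genes upstream of the ribosome were examined in the same way. The 35 genes of the mTORC1 pathway and LARP1 tested in the young table had medians of 0.07 at night and 0.05 after sleep disruption, each against day. Among aged libraries 37 genes of this list were tested, with medians of -0.121 in wild-type night against day and 0.185 in J20+ night against aged wild-type night. The list holds inhibitors of the pathway beside activators, so the sign of its median gives no direction for the pathway. Ddit4, an inhibitor of mTORC1 induced by stress and glucocorticoids, stood at 0.51 ± 0.20 in young night against day (adjusted p 0.461). The 56 genes of RNA polymerase I and ribosome assembly had medians of -0.04 and -0.007 in the same young comparisons, -0.03 in night against sleep disruption, -0.04 in aged wild-type night against day and 0.08 in J20+ night against aged wild-type night. Nle1, an assembly factor of the large subunit, stood at 1.36 ± 0.36 at night (adjusted p 0.197) and 0.93 ± 0.37 after sleep disruption (adjusted p 0.861), each with every library above the day range. Ncl, nucleolin, stood at -0.32 ± 0.10 in young night against day (adjusted p 0.314). The 78 mitochondrial ribosomal proteins had a median of 0.10 after sleep disruption with 66 above 0, of -0.01 in young night against day with 37 above 0, and of 0.15 in aged wild-type night against day with 61 above 0. Their median was -0.106 in young night against sleep disruption (14 above 0) and 0.12 in J20+ night against day (65 above 0). For J20+ against aged wild-type it was -0.115 in the day (9 above 0) and -0.201 at night (22 above 0). In the interaction it was -0.047 (27 above 0). Snhg and other snoRNA host genes, noncoding TOP transcripts, had a median of 0.55 in aged wild-type night against day (10 of 10 above 0) and of -0.59 in J20+ night against aged wild-type night (0 of 10), where Zfas1 stood at -0.72 ± 0.20 (adjusted p 0.0917). In young night against day their median was -0.08 (2 of 10 above 0).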

How the data were processed

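The deposited files are gene-by-library tables of raw counts, 1 for the 12 young and 1 for the 16 aged libraries, made by the authors from stranded poly(A) RNA. Per the submitters' processing notes, which name mm10, reads were handled with HISAT2 2.2.1 and featureCounts 2.0.1, besides cutadapt, FastQC 0.11.8, Picard 2.18.2 and DESeq2, with no role or order given. For the strand and multi-mapping settings of the counting, the sources used here give none, so reads of members may be shared with their pseudogenes. Symbols were matched for 93.0% of 27179 Entrez identifiers, and chromosomal places and promoters are those of RefSeq GRCm38.p6.

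Counts were analysed in R 4.3.3 with edgeR 4.0.16 (filterByExpr, TMM scaling, robust glmQLFit and glmQLFTest), with all groups of a table in 1 fit and Benjamini-Hochberg adjustment over all genes tested at 0.05. Every adjusted p in the text is from this test unless another is named. Log2 CPM values used a prior count of 2, while fold changes were those of glmQLFTest with edgeR's default prior count. Each SE came from dividing the fold change (log2) by the root of its F statistic. CPM values use TMM library sizes, except in the level filter of the members. GC and length corrections were loess curves (span 0.3) of each library's log2 counts, entered as offsets, and transcript values are averages over a gene's protein-coding GENCODE transcripts.

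In each comparison the members named are the 3 with the smallest p and the 2 highest and 2 lowest fold changes, and in each table the 5 highest and 5 lowest levels and the 3 most and least variable. In the other lists up to 3 genes with the smallest p were named. A few genes that these rules select are not reported here. Members that separate the groups without overlap, and those in the minority direction, were named after their values were seen. The members and lists were chosen with earlier results of these data known.

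Alternatives were RLE, upper-quartile and total-count scaling, DESeq2 1.42.0, limma-voom 3.58.1 with quality weights, other count filters, thinning to the shallowest library, the compared groups alone, the corrections, a neural marker score as a covariate, and each replicate left out. Another 5, chosen after seeing the data, left out pairs or sets of libraries that stood apart or fitted corrections without the members. The fits were also run on simulated counts, in which every gene had the same spread and no single library stood apart. Those settings differ from these data, so the simulation does not show how the fits behave here. Mice were separate animals, and p-values measure the spread between them. Depth ranged from 14632089 counts in an aged to 43885898 counts in another aged library.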

Additional observations from a re-analysis of the deposited data

Results flagged for a closer look

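In 113 groups of 4 libraries that were tested, 14 held a library whose gap to its nearest neighbour, divided by the range of the group, passed Dixon's critical value. Chance flags about 1 in 20 groups that are independent and not selected. These groups were neither, since most are of members named for their fold changes or p-values, in which the same library takes part, so that rate is no yardstick here. In 11 of the 14 the library was J20+ night 2. Its GC trend was 0.478 log2 per 10 percentage points and its length trend -0.166 log2 per doubling, each outside the narrow range of the other J20+ night libraries. It was above them with 236.4 CPM of Rpl27, 234.4 CPM of Rpl28, 177.1 CPM of Rpl31, 119.9 CPM of Rpl38, 118.3 CPM of Rps27 and 135.9 CPM of Rps29. It was below them with 183.8 CPM of Rpl3, 148.8 CPM of Rpl4 and 46.25 CPM of Rps4x. The remaining 3 were young libraries. Young night 4 stood apart with 165.6 CPM of Rpl3, young night 1 with 435.2 CPM of Rpl5 and young sleep-disrupted day 1 with 155.5 CPM of Rps4x.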

How the results depend on the processing

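No paired analysis was possible because every library is from a separate mouse and the replicate numbers only follow the order of deposition. RLE and upper-quartile scaling, the filters, thinning, GC correction and the neural covariate left each median with its sign and moved it by less than the spread between replicates, and edgeR called 0 members under each of them. Limma-voom called 36 members higher in young night against day, 1 lower in night against sleep disruption (median 0.039), 43 higher and 6 lower in aged wild-type night against day, 20 lower in J20+ day against aged wild-type day, 8 higher and 54 lower in J20+ night against aged wild-type night, and 5 higher and 4 lower in the interaction. DESeq2 called 17 higher in aged wild-type night against day and 28 lower in J20+ night against aged wild-type night. The compared groups alone gave 24 higher and 2 lower in aged wild-type night against day. The cause of these differences was not tested.

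Length correction gave medians of 0.031 in night against sleep disruption, 0.055 in aged wild-type night against day, -0.046 in J20+ night against aged wild-type night and 0.005 in the interaction. Fitted without the members, these were 0.035, 0.063, -0.048 and 0.004, and with GC added 0.011, -0.057, 0.017 and 0.151. Total counts alone gave 0.618, -0.570 and -0.393 in the last 3 of these comparisons, where the medians of all genes were 0.222, -0.216 and -0.165. Upper-quartile scaling moved the medians of all genes to 0.146 in aged wild-type night against day and -0.165 in J20+ night against aged wild-type night.

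Leaving out young day 4 and young night 4 gave 0.087 in night against sleep disruption. Leaving out the library with the lowest GC trend of each young group gave 5 members higher in night against day, where 1.92% of all genes were called. Leaving out J20+ day 1 and J20+ night 2 gave 6 higher and 52 lower in J20+ night against aged wild-type night, where 31.2% and 31.7% of all genes were called.

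With each replicate left out, medians ran from 0.133 to 0.324 in young night against day (lowest without day 4), 0.14 to 0.317 after sleep disruption, -0.123 to 0.087 in night against sleep disruption (0.087 without night 4, 0.039 without sleep-disrupted 4 and 0.006 without sleep-disrupted 2), 0.26 (without wild-type night 3) to 0.524 in aged wild-type night against day, 0.103 (without J20+ night 2) to 0.234 in J20+ night against day and -0.229 to -0.112 (without wild-type day 2) in J20+ day against aged wild-type day. They ran from -0.495 to -0.218 (without wild-type night 3) in J20+ night against aged wild-type night and from -0.313 to 0.016 (without wild-type night 3) in the interaction. Called members ran from 0 to 6 higher and 0 to 51 lower in J20+ night against aged wild-type night, from 0 to 1 higher and 0 to 3 lower in the interaction, and were 0 in the others. Some members stand at a low level in the young table, and a filter of 10 CPM in 4 libraries left 69 of them tested.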
